A study of Homo sapiens with 6 samples.

Results

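The nuclear genes of oxidative phosphorylation were examined in AF22, a human neural stem cell line in long-standing use, with and without knockdown of the Polycomb gene BMI1. Members were all gene symbols of the count files that match the naming pattern of the structural subunits (NDUFA, NDUFB, NDUFC, NDUFS and NDUFV with a number; SDHA to SDHD; UQCR; COX4 to COX8; CYC1; CYCS; ATP5). Of 26485 symbols, 89 matched. Of these, 80 reached at least 1 CPM (counts scaled to library size) in at least 3 libraries, and 79 were among the 12937 genes tested. They comprise 36 genes of complex I, 4 of complex II, 10 of complex III, cytochrome c, 12 of complex IV and 16 of complex V. The pattern also takes in a few genes that are not subunits: ATP5S and ATP5SL carry an older name of this kind, COX7A2L helps to join complexes III and IV, and UQCRHL is an intronless copy of UQCRH. NDUFA4, despite its name, is counted here with complex IV, where it is now placed.

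Total RNA was sequenced from 2 groups of 3 libraries of AF22 cells, with no treatment, time point or second line in the labels. The control libraries are labelled as shRNA controls; the other 3 are labelled as a knockdown of BMI1 and of COMMD3-BMI1, the read-through of BMI1 and its neighbour COMMD3. All 6 libraries come from the same line, and the labels do not say whether the numbers 1 to 3 mark separate cultures, so the p-values reflect a spread among 6 libraries that could be purely technical. Total counts ran from 4962745 to 9640349 per library. BMI1 was counted 463, 582 and 606 times in control and 193, 159 and 250 times in knockdown. The knockdown totals were 4962745, 7304714 and 9640349, so relative to depth BMI1 was lowest in knockdown library 2. Among the knockdown libraries it was highest in library 1. Mean BMI1 was 87.5 ± 2.44 CPM in control and 29.2 ± 9.57 CPM in knockdown (SD, n = 3 each). The edgeR log2 fold change of BMI1 was -1.61 (SE 0.194; adjusted p 0.163 unpaired and 0.00836 paired). COMMD3-BMI1 was listed at 0 in all 6 libraries. Neural stem cell markers SOX2 (282 to 386 CPM) and NES (577 to 1068 CPM) were present in every library, and HES5 was listed at 0. Others of that list were low, such as SOX1 (85 to 191 counts per library) and PAX6 (62 to 109). Summed pluripotency markers (4 genes, 3 tested) were at 413 to 556 CPM in control and 477 to 585 CPM in knockdown. Knockdown library 2 stood apart on the first principal component, at 40.2 against -25.5 to 11.5 in the other 5 libraries. Knockdown library 1, at -12.4, lay within the range of the controls (-25.5 to -4.07), and knockdown library 3 was at 11.5. The member calls, median, share of counts and some single genes are given with and without knockdown library 2. Other single-gene estimates include it and may depend on it. Single-gene estimates without knockdown library 1 are not given.

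Oxidative phosphorylation takes place in the inner mitochondrial membrane. Complex I (NADH dehydrogenase) and complex II (succinate dehydrogenase) pass electrons to ubiquinone, complex III (the cytochrome bc1 complex) passes them to cytochrome c, and complex IV (cytochrome c oxidase) passes them to oxygen. Complexes I, III and IV pump protons, and complex V, the ATP synthase, uses the gradient to make ATP. Most subunits are nuclear genes, and a few hydrophobic core subunits are encoded in mitochondrial DNA. Of the mitochondrial genome's own 13 protein genes, 0 were found among the gene symbols under the names searched, so they were not analysed here. Neural stem cells are known for leaning on glycolysis more than their neuronal progeny do, and oxidative phosphorylation gains weight as they differentiate. Loss of Bmi1 in mice has been tied to altered mitochondrial function and oxidant levels.

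The question was whether the subunit genes changed with the knockdown. No change in any of the 79 genes passed the test, and the measured differences were small in either direction. The unpaired edgeR quasi-likelihood test called 0 of 79, where it called 0% of all genes tested, and 3 had an unadjusted p under 0.05 (NDUFA5, NDUFA10 and UQCRB, all higher), where 14.4% of all genes did. The smallest adjusted p was 0.275, for UQCRB. In the paired fit, with the library number as a block, 0 of 79 were called against 10% of all genes (1296 of 12937). In that fit 10 had an unadjusted p under 0.05 (9 higher and 1 lower), where 28.7% of all genes did, and the smallest adjusted p was 0.0533, for ATP5G2. The 3 control and 3 knockdown values did not overlap in 9 of 79 genes (7 higher, 2 lower), against 20.5% of all genes. DESeq2 also called 0 of 79, unpaired and paired, and its calls over all genes are given in the last section. Unpaired limma voom called 0 of 79. Paired limma voom called ATP5G2 (adjusted p = 0.0499) and no other member, where it called 10.7% of all genes.

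The intervals bound how large a change these libraries leave room for. The log2 fold changes ran from -0.20 (NDUFA8) to 0.22 (ATP5G2), with a median of 0.03, against a median near 0 (-0.003) over all genes. The median size of the change regardless of sign was 0.0905 for the 79 genes and 0.151 for all genes tested. The 95% intervals of the unpaired estimates lay within 0.75 log2 units of zero for all 79 genes, and within 0.5 for 73. The interval that reached farthest, to 0.65, belonged to the weakly expressed UQCRHL. In the paired fit 77 intervals lay within 0.5, and 32 within 0.25.

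**Figure D1:**
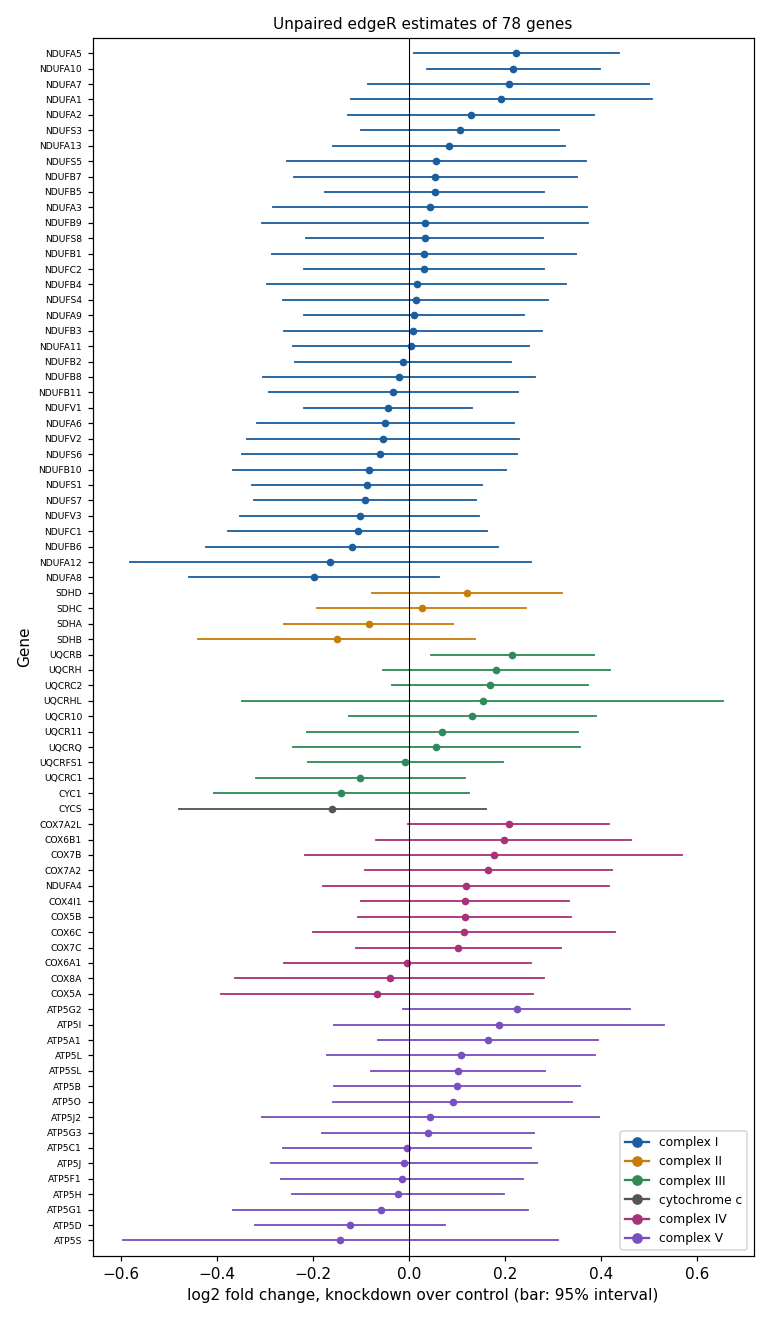
Log2 fold change of the nuclear oxidative phosphorylation genes reported here, knockdown over control (x axis), with the 95% interval of the unpaired edgeR fit, 1 row per gene, coloured by complex. All points lie between -0.20 and 0.22, and 3 intervals leave out 0, those of NDUFA5, NDUFA10 and UQCRB.

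The genes took a like share of each library's counts in both groups. Members at or above 1 CPM held 0.741%, 0.687% and 0.732% of all counts in controls 1 to 3. The shares were 0.783%, 0.660% and 0.764% in knockdowns 1 to 3. The means were 0.720% ± 0.0287 and 0.736% ± 0.0658 (SD, n = 3 each), so the difference of 0.0156 percentage points was smaller than the spread within either group. That spread includes what same-numbered libraries share. By pair the differences were 0.0421, -0.0267 and 0.0315 points in pairs 1, 2 and 3. The number 2 library was the lowest of each group. Without knockdown library 2 the difference was 0.0532 points. In bulk RNA, a smaller number of cells and less RNA per cell cannot be told apart.

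**Figure D2:**
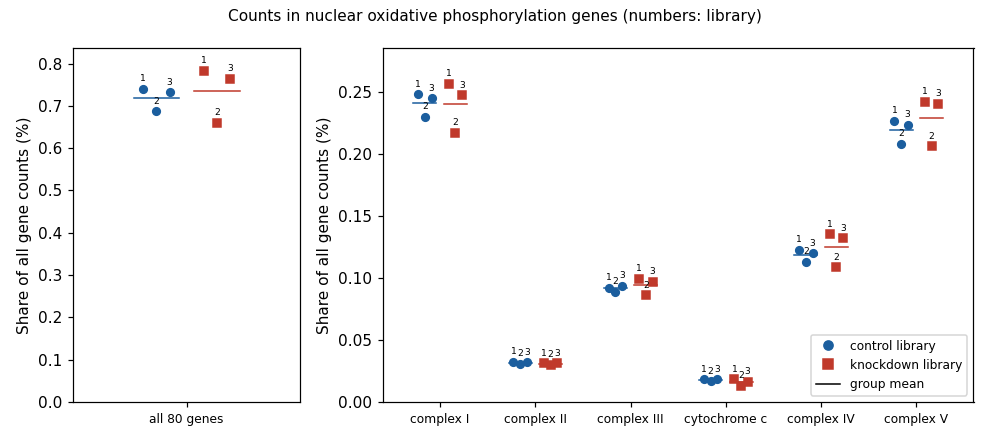
Share of all gene counts, in percent, held by the 80 genes at or above 1 CPM together (left) and by complex (right), 1 point per library with its number, and a line at each group mean. The groups overlap for all genes together, and knockdown library 2 is the lowest of the 6 libraries, at 0.660%.

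Within library pairs the genes did not move one way. The median difference in log2 CPM, knockdown minus control, was 0.09, -0.10 and 0.09 in pairs 1 to 3. It was positive for 58 of 79 genes in pair 1, 25 in pair 2 and 59 in pair 3, while 6461, 6312 and 6460 of all 12937 genes were positive in the same pairs. Pair 2 was the lowest of the 3 pairs for 63 of 79 genes. All 3 pairs had the same sign in 28 of 79 genes (21 higher, 7 lower), against 52.3% of all genes.

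Leaving out pair 2, which holds the knockdown library with the lowest BMI1 level for its depth, changed the calls. On pairs 1 and 3 alone, where the block leaves few degrees of freedom, the paired edgeR fit called 16 of 79 genes, all higher in knockdown. It called 9.33% of all genes as higher and 8.55% as lower. The 16 genes were 5 of complex V (ATP5A1, ATP5B, ATP5G2, ATP5I, ATP5O), 6 of complex IV (COX6B1, COX7A2, COX7A2L, COX7B, COX7C, NDUFA4), 3 of complex III (UQCRB, UQCRC2, UQCRH) and NDUFA1 and NDUFA5 of complex I. Their log2 fold changes ran from 0.14 (ATP5B, adjusted p = 0.0166) to 0.32 (COX7B, adjusted p = 0.00123). Without pair 1, and without pair 3, the same fit called 0 of 79. Over all genes the fit without pair 2 called the most of these 3 fits, so their member counts are not on equal terms. Without knockdown library 2 the unpaired test also called 0, although the log2 fold change was then positive for 66 of 79 genes with a median of 0.11, against 48.3% positive over all genes.

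**Figure D3:**
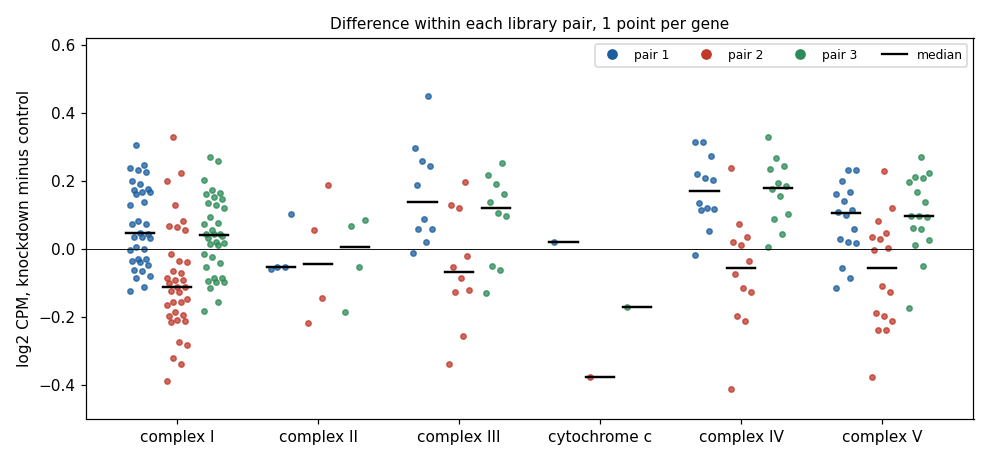
Difference in log2 CPM, knockdown minus control, within library pairs 1, 2 and 3 for each of 79 genes (points) and the median (black lines), by complex. The pair 2 medians of complexes I, III, IV and V lie below 0 (-0.11, -0.07, -0.06 and -0.06), and those of pairs 1 and 3 above it.

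Genes of cell division were also lowest in pair 2, but unlike the subunit genes their median was negative in every pair. The 15 division genes had median differences of -0.17, -1.01 and -0.50 in pairs 1, 2 and 3, and 14 of 15 fell in the paired fit, where 5.39% of all genes were called lower and 4.63% higher. Their summed level was 3538, 3148 and 3090 CPM in control and 3025, 1637 and 2176 CPM in knockdown libraries 1, 2 and 3. Summed mesenchymal markers (5 genes, among them the collagen gene COL3A1) were at 1379 to 1714 CPM in control and 1704 to 2451 CPM in knockdown, highest in knockdown library 2. Summed neuronal markers (8 genes, 6 tested) were at 435 to 569 and 250 to 466 CPM, lowest in knockdown library 2. Most of that sum is NEFM and TUBB3 (61.6 and 88.9 CPM in knockdown library 2, on TMM-scaled totals, where the sums use plain totals). The synaptic gene SYT1 lay the other way, with pair differences of 0.33, 0.36 and 0.18 (paired edgeR adjusted p = 0.0608). Among the neuronal markers DCX had 1 to 7 counts and STMN2 0 to 2 counts per library. Of 9 neural stem cell markers tested, 7 had negative and 2 positive log2 fold changes. Their median differences were -0.07, -0.46 and -0.06 in pairs 1, 2 and 3. The part of these differences in the pair 2 values of the subunit genes was not tested.

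Promoter sequence was set beside the changes because NRF1, a transcription factor known to bind promoters of many respiratory chain genes, was itself lower in knockdown. NRF1 was at 45.6, 36.6 and 44.7 CPM in control and 36.4, 28.4 and 34.8 CPM in knockdown libraries. Each knockdown library was below its numbered control, and the groups did not overlap. The NRF1 log2 fold change was -0.35 (SE 0.137; edgeR adjusted p 0.303 unpaired, 0.0397 paired). RefSeq promoter windows (GRCh38.p14, 250 bases before to 50 after the start, 300 in all) were found for 63 of the 79 genes. They were searched on both strands for a core NRF1 motif (GCGCATGC), an ETS motif as bound by GABP (CCGGAAG) and a YY1 motif (AAGATGGC). The first can overlap its own reverse complement, and no hits of different motifs overlapped in these windows. The windows below are shown because they hold the NRF1 letters in members from 3 steps of the chain, cytochrome c, complex IV and complex II, and SDHB holds all 3 motifs. Capitals mark motif letters on either strand, and each window is written 5′ to 3′ on the gene's strand.
CYCS: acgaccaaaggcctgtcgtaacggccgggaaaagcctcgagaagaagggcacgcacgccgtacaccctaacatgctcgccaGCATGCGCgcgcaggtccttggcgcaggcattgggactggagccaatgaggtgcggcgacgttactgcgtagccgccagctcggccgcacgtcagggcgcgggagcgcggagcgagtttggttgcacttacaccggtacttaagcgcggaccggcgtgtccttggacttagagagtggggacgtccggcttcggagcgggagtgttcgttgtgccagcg
COX6A1: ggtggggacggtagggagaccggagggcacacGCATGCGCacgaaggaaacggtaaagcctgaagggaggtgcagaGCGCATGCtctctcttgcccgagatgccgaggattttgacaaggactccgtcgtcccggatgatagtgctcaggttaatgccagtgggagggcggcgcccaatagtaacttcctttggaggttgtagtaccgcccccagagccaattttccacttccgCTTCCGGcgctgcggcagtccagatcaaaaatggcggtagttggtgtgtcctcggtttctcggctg
SDHB: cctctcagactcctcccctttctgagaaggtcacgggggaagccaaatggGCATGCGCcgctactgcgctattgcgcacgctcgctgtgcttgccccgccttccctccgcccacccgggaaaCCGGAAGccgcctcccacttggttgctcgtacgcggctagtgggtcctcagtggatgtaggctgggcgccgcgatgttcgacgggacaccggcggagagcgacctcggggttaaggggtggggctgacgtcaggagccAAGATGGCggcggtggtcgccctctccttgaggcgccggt
SDHD: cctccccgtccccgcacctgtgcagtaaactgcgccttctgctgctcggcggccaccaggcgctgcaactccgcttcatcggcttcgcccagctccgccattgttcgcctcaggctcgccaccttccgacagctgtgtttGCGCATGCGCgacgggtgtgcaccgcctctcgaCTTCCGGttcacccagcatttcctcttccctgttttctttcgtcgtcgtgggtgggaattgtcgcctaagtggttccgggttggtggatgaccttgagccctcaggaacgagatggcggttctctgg
The CYCS window lies on the minus strand at chr7:25125211-25125510, with its NRF1 letters starting 169 bases before the start. COX6A1 (plus strand, chr12:120437863-120438162) has the NRF1 letters at separate places and the ETS letters just before the start. SDHB (minus strand, chr1:17053983-17054282) has NRF1, ETS and YY1 letters in that order. SDHD (plus strand, chr11:112086623-112086922) has overlapping NRF1 letters and an ETS match, and exons of TIMM8B overlap the gene on the other strand.

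All 3 motifs were more frequent in these windows than in promoters at large, a set not limited to genes expressed in these cells. Promoters of other expressed genes were not compared. The NRF1 letters were in 12 of 63 windows (19.0%), against 3.05% of all 35116 promoters. The ETS letters were in 19 (30.2%), against 10.3%, and the YY1 letters in 12 (19.0%), against 2.89%. None of the 3 was found in 29 windows. Genes with the NRF1 letters had a median log2 fold change of -0.03, 4 positive and 8 negative, from -0.20 (NDUFA8) to 0.19 (ATP5I), and genes without them a median of 0.03. With the ETS letters the median was 0.11, 14 positive and 5 negative, and without them -0.01. With the YY1 letters it was -0.01 and without them 0.03. These are descriptions of letters in 1 window per gene, and the differences between medians were not tested.

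Complex I takes electrons from NADH through a flavin and a chain of iron-sulfur clusters held by 7 nuclear core subunits. None of its 36 genes was called in either fit, and the median log2 fold change was 0.01 (pairs 0.05, -0.11 and 0.04). Over the core subunits alone the median was -0.04. NDUFS1, an iron-sulfur subunit of the peripheral arm, was at 140, 125 and 127 CPM in control and 133, 107 and 129 CPM in knockdown libraries 1, 2 and 3. NDUFV1, which binds NADH and the flavin, was at 93.3, 98.6 and 100.4 CPM in control and 93.7, 96.1 and 93.9 CPM in knockdown. Both pairs of groups overlap, and the log2 fold changes were -0.09 (SE 0.105) and -0.04 (SE 0.0762). NDUFS7, at the ubiquinone end, had -0.09, NDUFS3 had 0.11, NDUFS8 0.03 and NDUFV2 -0.05. The smallest unpaired adjusted p among the core subunits was 0.613, for NDUFS3.

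Among the 29 accessory subunits of complex I, NDUFA5 and NDUFA10 had the largest differences. NDUFA10 was at 85.3, 78.98 and 84.4 CPM in control and 96.4, 99.2 and 93.5 CPM in knockdown libraries. The groups did not overlap, and knockdown was higher in all 3 pairs (0.18, 0.33 and 0.15). The estimate was 0.22 log2 units (SE 0.0787; edgeR adjusted p 0.288 unpaired, 0.0828 paired). NDUFA5 was at 67.3, 73.6 and 65.8 CPM in control and 83.1, 84.6 and 73.8 CPM in knockdown, where the lowest knockdown library stood just above the highest control. The estimate was 0.22 (SE 0.0935), with an adjusted p of 0.329 unpaired and 0.0825 paired. NDUFA8 lay the other way, at 48.7, 48.4 and 54.0 CPM in control and 45.9, 38.2 and 47.6 CPM in knockdown, again without overlap. NDUFA8 had a log2 fold change of -0.20 (SE 0.113), with an adjusted p of 0.456 unpaired and 0.159 paired. Without knockdown library 2 the unpaired NDUFA8 estimate was -0.11. NDUFA13, also studied as a regulator of cell death under the name GRIM-19, had 0.08 (SE 0.106).

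Complex II is the only complex of the chain with all its subunits in the nucleus, and it is also an enzyme of the TCA cycle. Its 4 genes had a median log2 fold change of -0.03, and none was called in either fit. SDHA, the flavoprotein, was at 114, 112 and 111 CPM in control and 110, 102 and 107 CPM in knockdown libraries. The groups did not overlap, but the log2 fold change was only -0.08 (SE 0.0769, adjusted p = 0.641, 0.428 paired). SDHB, the iron-sulfur subunit, was at 47.6, 42.7 and 51.8 CPM in control and 45.9, 36.6 and 45.6 CPM in knockdown, with overlap. Its log2 fold change was -0.15 (SE 0.126, adjusted p = 0.602), and -0.05 without knockdown library 2. SDHD, a membrane anchor, was at 48.0, 48.7 and 50.5 CPM in control and 51.5, 55.5 and 52.9 CPM in knockdown, without overlap and with a log2 fold change of 0.12 (SE 0.0865, adjusted p = 0.546). The other anchor, SDHC, had 0.03 (SE 0.0954). SDHA and SDHB thus had negative and SDHC and SDHD positive estimates, none past the test.

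Complex III hands electrons from ubiquinol to cytochrome c. Its 10 genes had a median log2 fold change of 0.10 (pairs 0.14, -0.07 and 0.12), and none was called in either fit. UQCRB, a small subunit at the ubiquinone-binding side, was at 103, 107 and 107 CPM in control and 123, 122 and 122 CPM in knockdown libraries. The groups did not overlap, and all 3 pairs were positive (0.26, 0.20 and 0.19). The log2 fold change was 0.21 (SE 0.0739; 95% interval 0.05 to 0.38), with an adjusted p of 0.275 unpaired and 0.0654 paired. Of the core pair, UQCRC2 had 139, 130 and 139 CPM in control and 165, 141 and 153 CPM in knockdown, all higher, with a log2 fold change of 0.17 (SE 0.0891, adjusted p = 0.426, 0.129 paired). UQCRC1 had -0.10 (SE 0.0953). The hinge protein gene UQCRH had 0.18 (SE 0.103), and its copy UQCRHL 0.15 (SE 0.219) at 6.34 to 6.64 CPM in control and 5.81 to 8.89 CPM in knockdown. How reads of UQCRH and UQCRHL were told apart is not given in the sources used here, so the UQCRHL level is uncertain.

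Cytochrome c, the mobile carrier between complexes III and IV and also a trigger of apoptosis when released, is encoded by CYCS. It was at 184, 164 and 180 CPM in control and 187, 126 and 160 CPM in knockdown libraries. The differences were 0.02, -0.37 and -0.17 in pairs 1, 2 and 3, and knockdown library 1 was the highest of all 6. The log2 fold change was -0.16 (SE 0.14), with an adjusted p of 0.620 unpaired and 0.196 paired. Without knockdown library 2 the unpaired CYCS estimate was -0.02. Of the 79 genes 44 have annotated pseudogenes that carry their name, and CYCS has 40, so its count can depend on how reads with several matches were treated.

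Complex IV reduces oxygen to water; its catalytic core is mitochondrially encoded and its nuclear subunits surround and tune it. Its 12 genes had a median log2 fold change of 0.12 (pairs 0.17, -0.06 and 0.18), 9 were positive, and none was called in either fit. COX7A2L was at 106, 92.0 and 104 CPM in control and 122, 109 and 118 CPM in knockdown libraries, without overlap and higher in all 3 pairs (0.21, 0.24 and 0.18). The COX7A2L estimate was 0.21 log2 units (SE 0.0918), with an adjusted p of 0.354 unpaired and 0.0721 paired. COX6B1, which faces the intermembrane space, had 0.20 (SE 0.116), with pair differences of 0.31, 0.01 and 0.24. COX4I1, the largest nuclear subunit, had 0.12 (SE 0.0947) and NDUFA4 0.12 (SE 0.13). COX6A1 was flat at -0.004 (SE 0.112) and COX8A at -0.04 (SE 0.14). COX7A2 had 0.17 (SE 0.113) with all libraries. Without knockdown library 2 the estimates of COX7A2 and NDUFA4 were 0.28 and 0.26, with adjusted p of 0.329 and 0.348.

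The isoforms of complex IV that other tissues use were at or near zero counts. COX4I2 (lung and oxygen-responsive isoform), COX6A2 and COX7A1 (heart and skeletal muscle isoforms) and COX7B2 (testis isoform) were listed at 0 in all 6 libraries. The testis isoforms COX6B2 and COX8C had 2 counts and 1 count in all libraries together. The ubiquitous partners COX4I1, COX6A1, COX6B1, COX7A2, COX7B and COX8A had means of 54.6 to 156 CPM in control. No gain of a tissue isoform was detectable in knockdown at this depth. The other members under 1 CPM, the pseudogenes ATP5EP2 and UQCRBP1 and the copy ATP5L2, had 1 count each.

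Complex V makes ATP in its F1 head, driven by rotation of a ring of c subunits in the membrane. Its 16 genes had a median log2 fold change of 0.04 (pairs 0.11, -0.06 and 0.10), and none was called in either fit. The catalytic beta subunit ATP5B was at 474, 425 and 474 CPM in control and 523, 426 and 522 CPM in knockdown libraries; the groups overlap. Its log2 fold change was 0.10 (SE 0.112, adjusted p = 0.714). The alpha subunit ATP5A1 had 415, 371 and 399 CPM in control and 476, 403 and 448 CPM in knockdown, with a log2 fold change of 0.16 (SE 0.0998, adjusted p = 0.482, 0.123 paired). For both F1 genes the number 2 library was the lowest of its group. By part of the enzyme, the median was 0.05 for 4 F1 genes, 0.08 for 6 genes of the membrane part and -0.01 for 4 genes of the peripheral stalk that holds head and membrane part together.

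The c subunit is encoded by 3 genes that differ in their import sequences and yield the same mature protein. ATP5G2 was at 139, 117 and 132 CPM in control and 164, 137 and 153 CPM in knockdown libraries. The groups overlap by 1 library, since knockdown library 2 lay below control library 1, but the pair differences were 0.23, 0.23 and 0.21. The estimate was 0.22 log2 units (SE 0.103; edgeR adjusted p 0.368 unpaired, 0.0533 paired). In other versions of the paired fit it passed the threshold: at 0.0484 with RLE size factors (where 10.3% of all genes were called), at 0.0496 with no filter (11.4%) and at 0.0499 with limma voom (10.7%). ATP5G3 had 0.04 (SE 0.0963, pair differences 0.02, -0.003 and 0.10) and ATP5G1 -0.06 (SE 0.134, pair differences -0.05, -0.21 and 0.06). Whether the 3 genes differ in their change was not tested. ATP5G2 (now ATP5MC2) lies on chromosome 12 at 53632726 to 53677408, minus strand, in GRCh38 (GENCODE 29).

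ATP5I, a small membrane subunit, had a log2 fold change of 0.19 (SE 0.15). ATP5E, the epsilon subunit, was the 1 gene above 1 CPM that the filter left untested, at 6, 3 and 9 counts in control and 5, 9 and 19 in knockdown libraries. The read-through symbol SLMO2-ATP5E, which shares its exons, had 587, 682 and 778 counts in control and 579, 767 and 1152 in knockdown, and a log2 fold change of 0.08 (SE 0.0897, adjusted p = 0.714). Reads of ATP5E may therefore have been counted under the read-through symbol.

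Levels were compared between genes per kilobase (kb) of the median annotated transcript, since counts grow with length. In control the median was 157 CPM per kb for complex IV, 134 for complex V, 93.6 for complex III, 72.7 for complex I and 55.2 for complex II, and CYCS was at 181 ± 11.3 CPM per kb (SD, n = 3). The highest gene was ATP5J2, at 292 ± 29.1 CPM per kb, followed by ATP5B at 249 ± 15.4, SDHC at 229 ± 21.5, COX8A at 224 ± 20.6 and COX4I1 at 196 ± 12.4. Among these 5 genes, the ranges of mean ± SD of neighbours in the order overlap. SDHC stood far above its partners SDHD (56.97 ± 1.52), SDHA (53.3 ± 0.755) and SDHB (41.1 ± 3.97). The median transcript length was only 0.46 kb for SDHC and 0.323 kb for ATP5J2, which raises their per-kb values. Before division by length ATP5J2 was at 94.4 CPM in control, against 458 CPM for ATP5B. The lengths of the transcripts used in these cells were not measured. Among the c subunit genes ATP5G3 was at 195 ± 11.3, ATP5G2 at 160 ± 14.0 and ATP5G1 at 74.2 ± 5.17 CPM per kb. In knockdown the same genes were at 200.5 ± 17.7, 186 ± 16.5 and 71.1 ± 10.9. The lowest were UQCRHL, at 2.97 ± 0.0702, and ATP5S, at 7.20 ± 0.332.

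**Figure D4:**
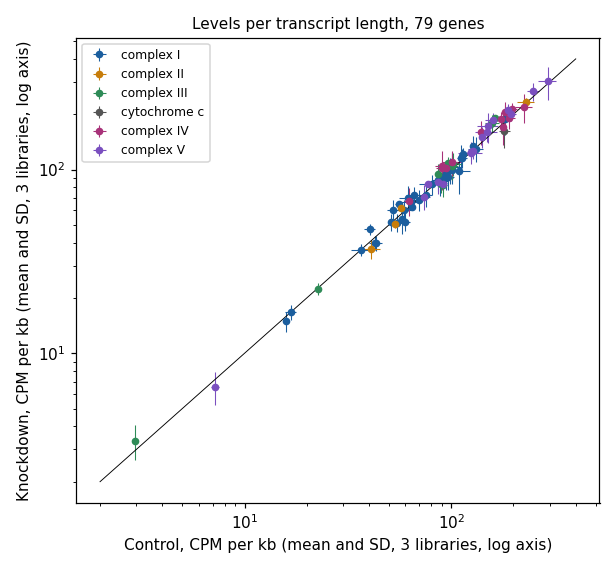
Mean CPM per kb of transcript in control (x axis, log scale) and knockdown (y axis, log scale), 1 point per gene with the SD over 3 libraries, coloured by complex; the line marks equal levels. The 79 genes lie along the line from UQCRHL at 2.97 to ATP5J2 at 292 CPM per kb in control.

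Genes that build, copy or regulate the chain were counted from lists outside the members. Of 48 assembly factors, which insert cofactors and join subunits, 2 fell (4.17%, against 5.39% of all genes) and 0 rose in the paired fit, and the median was -0.09 (pairs -0.05, -0.20 and -0.08). They were COA1, at 65.6 ± 4.76 CPM in control and 51.8 ± 9.07 in knockdown (paired log2 fold change -0.36, SE 0.0856, adjusted p = 0.0392), and COA7, at 27.9 ± 2.39 and 20.7 ± 3.05 CPM (-0.44, SE 0.114, adjusted p = 0.0445). Both act in complex IV assembly, among other roles. Of 19 regulators of mitochondrial biogenesis, 1 rose (5.26%, against 4.63% of all genes) and 2 fell (10.5%, against 5.39%) in the paired fit. TFAM, which packages and transcribes mitochondrial DNA, fell from 94.8 ± 10.4 to 70.6 ± 18.9 CPM (paired log2 fold change -0.45, SE 0.0912, adjusted p = 0.0268), and NRF1 fell as given above. ESRRA, a nuclear receptor that drives respiratory genes, rose from 45.5 ± 3.08 to 60.5 ± 5.28 CPM (0.41, SE 0.094, adjusted p = 0.0343). PPARGC1A, the coactivator that works with both, was at 2.45 to 4.19 CPM over the 6 libraries, with a paired adjusted p of 0.804. GABPA, the DNA-binding part of GABP, had a paired log2 fold change of -0.21 (adjusted p = 0.180), and YY1 0.02 (0.842).

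Of 77 mitochondrial ribosome genes tested, 4 fell (5.19%) and 0 rose in the paired fit (MRPL3, MRPL20, MRPS7 and MRPS34), with a median of -0.09 (pairs -0.004, -0.19 and -0.08). The steepest were MRPS7 at -0.54 (SE 0.126, adjusted p = 0.0365) and MRPS34 at -0.52 (SE 0.0968, adjusted p = 0.0256). Of 18 TCA cycle genes, 1 fell (5.56%), PC, the pyruvate carboxylase that refills the cycle, at -0.47 (SE 0.123, adjusted p = 0.0472), with a list median of -0.12 (pairs -0.03, -0.20 and -0.11). These shares are near the 5.39% of all genes called lower. None of these genes was called in the unpaired fit. The pair 2 median was the lowest of the 3 for the subunit, assembly, ribosome and TCA lists, and the highest for the regulators. Differences between the lists were not tested.

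**Figure D5:**
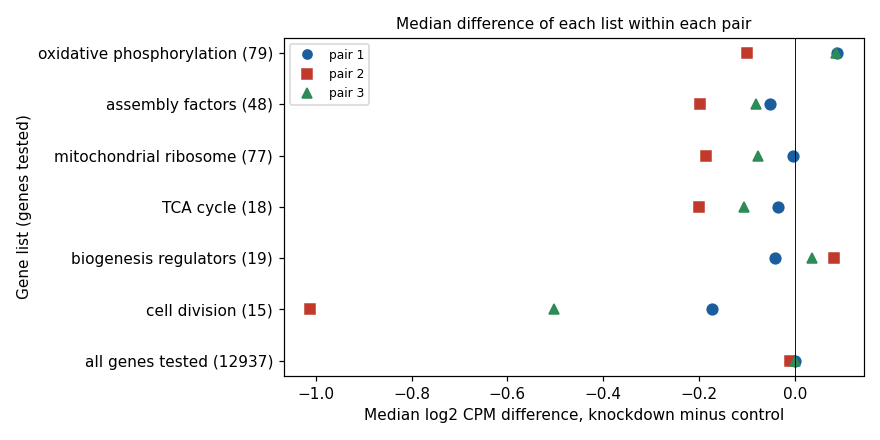
Median difference in log2 CPM, knockdown minus control (x axis), of each gene list (rows, with the number of genes tested) within pairs 1, 2 and 3. The oxidative phosphorylation genes lie at 0.09, -0.10 and 0.09, the cell division genes at -0.17, -1.01 and -0.50, and all genes tested near 0 in every pair.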

How the data were processed

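Total RNA of AF22 cells was made into directional libraries, per the labels' protocols. The authors deposited 1 table per library of raw counts per gene symbol, judged from whole values with differing totals. The submitters' processing notes name Trim Galore 0.6.6, STAR 2.7.10a, bedtools and hg38. What counted the reads, with which annotation and strand setting, is not given in the sources used here. Of the tested members 24 share exon bases with a gene on the other strand and 19 with one on the same strand, so their counts may include or lack reads of those genes.

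Tests used edgeR 4.0.16 (R 4.3.3) with filterByExpr, TMM factors, and the quasi-likelihood test with group as the only term (unpaired) or with the library number as a block (paired). P-values were Benjamini-Hochberg adjusted over all 12937 genes, at a threshold of 0.05. The SE is the log2 fold change divided by the square root of F, and 95% intervals use the fit's degrees of freedom. CPM values of single genes use TMM-scaled totals, as does log2 CPM, with a prior count of 2. The 1 CPM rule, the summed levels of marker and division genes and the shares of counts use plain totals. Same-numbered libraries deviated together (correlations across genes of 0.563, 0.467 and 0.535, each above 0.1), so libraries were paired by number, on the evidence of the data alone. Over the tested members the correlations were weaker, at 0.383, 0.412 and 0.188. For number 3 that was close to the 0.175 of control 1 with knockdown 3, the highest among libraries of unlike number. Within a group, libraries differed by more than counting noise (chi-square per gene at least 3.19). Control library 1 and knockdown library 1, the libraries of lowest total counts, differed by less (2.74). Alternatives were DESeq2 1.42.0, voom (limma 3.58.1), RLE factors, plain totals, 2 other filters (none, or 1 CPM in 3 libraries) and leaving out each library or pair. The pipeline was tested on simulated data. Transcript lengths are from GENCODE 29. Figures were drawn with matplotlib 3.10.9.

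Members and lists were chosen with earlier results of these data known. Named genes were members past the threshold, the 2 highest and the 2 most changed of each complex, paralogs, low members, the 7 core subunits of complex I and up to 4 genes per other list. NDUFA1, NDUFA8, COX7B, COX7C, ATP5E, ATP5J2, ATP5O, ATP5S, ATP5SL, SOX1, PAX6, TUBB3, DCX, STMN2, PPARGC1A, GABPA and YY1 were named after their values were seen. A gene that the rule names is not reported here.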

Additional observations from a re-analysis of the deposited data

How the results depend on the processing

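The unpaired count of 0 members called held under every alternative run, the block included. Over all genes that count was 2 with no filter, 142 with DESeq2 and 1296 with the replicate block, and 0 to 665 with 1 library left out; the 665 came without knockdown library 1. The paired count over all genes was 2171 with no filter and 590 with DESeq2, and 912 to 2296 with 1 pair left out. The paired count of members was 1 (ATP5G2) with RLE size factors, no filter and limma voom, and 0 to 16 with 1 pair left out. The 16 came without pair 2. The cause was not tested. The median of complex II lay between -0.0598 and 0.0183 with 1 library left out, positive without control library 1 or knockdown library 2, and the difference in share of counts between -0.00799 and 0.0532 percentage points. The median of all members lay between -0.02 and 0.11 with 1 library left out, negative without control library 2. Of 429 single-gene values for 33 named genes, 427 moved by less than their error, and 24 genes kept their sign throughout. Depth limits UQCRHL and ATP5S, the least expressed members tested, and the isoforms at 0 to 2 counts.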
